A study of Mus musculus with 13 samples.

Results

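The opioid system of medial habenula neurons was described through 8 genes: the receptors Oprm1, Oprd1, Oprk1 and Oprl1 and the peptide precursors Penk, Pdyn, Pomc and Pnoc. They were picked by symbol, and all 8 were present among the 22682 gene symbols that every library listed. Pnoc was included because it was known to rank high in knockout samples, so the genotype values of the 8 genes are given below as a description without p-values. The study profiled messenger RNA on ribosomes of cholinergic neurons in Gpr151 knockout and wild-type mice. Gpr151 is a habenular G protein-coupled receptor with no agreed ligand, and the study's title places the work in synaptic plasticity and nicotine intake. All animals were adults of more than 8 weeks that carried the Chat-TRAP transgene of line DW167, from which cholinergic cells make a GFP-tagged ribosomal protein. Medial habenula was dissected, and ribosomes were pulled down with anti-GFP beads (immunopurification, IP). There were 6 IP libraries from Gpr151-KO mice with the transgene, 6 IP libraries from mice with the transgene and intact Gpr151, called wild type here, and 1 library of unpurified homogenate (input) from such wild-type mice. A library held the pooled habenulae of 4 mice (3 in replicate 2 of either genotype), so replicates are separate pools and no animal can be seen alone. The labels give neither the kind of knockout allele nor the sex of the mice.

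Opioid peptides are cut from large precursor proteins, at pairs of basic residues, by the prohormone convertases. Enkephalins come from Penk, dynorphins from Pdyn and beta-endorphin from Pomc, and they act on the mu, delta and kappa receptors encoded by Oprm1, Oprd1 and Oprk1. Nociceptin comes from Pnoc and acts on Oprl1, a receptor of the same family that binds classical opioid peptides poorly. All 4 receptors couple to inhibitory Gi/o proteins, which lower cyclic AMP, open GIRK potassium channels and close presynaptic calcium channels. The medial habenula is known as one of the brain regions with the densest mu receptor, and the cholinergic neurons studied here fill its ventral part and project to the interpeduncular nucleus.

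The precursors are related in the coding sequence of their peptides, which is shown for Penk, Pomc and Pnoc to make clear what the transcripts encode. The classical peptides start with Tyr-Gly-Gly-Phe and nociceptin with Phe-Gly-Gly-Phe, here called the core. Read in frame in the GENCODE M21 transcripts on GRCm38, the core occurred 7 times in the 804 coding bases of Penk, once in the 705 of Pomc and once in the 561 of Pnoc. In the lines that follow, the 12 capitals are the 4 codons of the core, and the 6 bases before them are the codons of the basic pair at which the precursor is cut.
Penk, first copy, chr4:4134295-4134354, minus strand: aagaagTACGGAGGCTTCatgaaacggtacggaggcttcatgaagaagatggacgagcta
Penk, copy 6, chr4:4133902-4133961, minus strand: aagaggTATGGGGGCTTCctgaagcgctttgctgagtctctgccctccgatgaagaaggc
Pomc, chr12:3960367-3960426, plus strand: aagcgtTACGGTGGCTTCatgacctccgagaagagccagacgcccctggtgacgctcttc
Pnoc, chr14:65404839-65404898, minus strand: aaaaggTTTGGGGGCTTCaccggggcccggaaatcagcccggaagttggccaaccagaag
The codon after the core is atg for Met in the first Penk copy and in Pomc, as in Met-enkephalin and beta-endorphin, and ctg for Leu in copy 6 of Penk, as in Leu-enkephalin. The Pnoc core shared 9 of its 12 bases with the cores of Penk (first copy) and Pomc, and the line of the first Penk copy also holds the second copy in lower case.

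Knockout IP libraries held 32623249 to 64388596 gene counts each, wild-type IP libraries 28375912 to 58502055, and the input 54701790. Levels are given as CPM, counts scaled to the library's sum over the 22682 shared symbols. A count of 0 allows up to 3 counts, which was 0.0502 to 0.121 CPM in an IP library and 0.0680 CPM in the input, for counting error alone. Gpr151 had 121 to 212 CPM in knockout IP libraries, against 382 to 589 CPM in wild-type IP libraries, a log2 fold change of -1.63 ± 0.17 (SE). The 8 markers of the purified neurons, among them Chat and the vesicular acetylcholine transporter Slc18a3, summed to 3342 to 7538 CPM in knockout IP, 4468 to 7014 CPM in wild-type IP and 597 CPM in the input. All 8 reached 2 times the input in every wild-type IP library. Replicates 1 and 2 of each genotype are earlier libraries, counted on a longer list of genes, and replicates 3 to 6 are later ones. Astrocyte, oligodendrocyte and thalamic markers varied between IP libraries and were highest in knockout replicates 3 and 6 and wild-type replicate 3, where the 8 astrocyte markers reached 1768 CPM among knockout and 976 CPM among wild-type libraries, against medians of 409 CPM in knockout IP and 231 CPM in wild-type IP.

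Oprm1 and Oprl1 were the opioid transcripts abundant in the purified RNA, also per kilobase of exon, and the other 6 were low. Oprm1, the mu receptor (chromosome 10, 6758506 to 7038198, plus strand), ranged from 79.4 to 106 CPM with a median of 96.5 in knockout IP and from 78.3 to 129 CPM with a median of 106 in wild-type IP. The 2 genotypes overlapped over most of that range, and the input, at 96.8 CPM from 4269 counts, lay inside it. Oprl1, the nociceptin receptor (chromosome 2, 181715016 to 181720985, plus strand), ranged from 43.3 to 72.3 CPM with a median of 51.8 in knockout IP and from 46.9 to 69.5 CPM with a median of 56.1 in wild-type IP. Each of the 12 IP libraries was above the input, at 43.0 CPM from 1898 counts. Knockout replicates 3 and 6 were level with the input within counting error. Part of the Oprm1 exons overlaps Ipcef1 on the opposite strand, and the sources used here do not say whether strand was used in counting, so reads of these genes cannot be told apart there.

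Oprk1, the kappa receptor (chromosome 1, 5588466 to 5606131, plus strand), had 0.463 to 10.6 CPM with a median of 2.13 in knockout IP and 0.803 to 6.10 CPM with a median of 1.53 in wild-type IP. Its highest values were in knockout replicate 3 and wild-type replicate 3, and the input stood above every IP library at 16.5 CPM. Across the later libraries it spread widely in both genotypes, at 1.54 to 10.6 CPM in knockout IP, against 0.803 to 6.10 CPM in wild-type IP. Oprd1, the delta receptor (chromosome 4, 132110726 to 132144486, minus strand), was close to the limit of detection. It had 6 to 42 counts per knockout library and 0 to 68 per wild-type library, or 0.151 to 0.978 CPM in knockout IP and 0 to 1.88 CPM in wild-type IP. The 0 was in wild-type replicate 2, where 3 counts would be 0.121 CPM, and the input held 0.839 CPM from 37 counts. By the exact intervals for counting error, knockout replicates 2, 3 and 4 and wild-type replicates 2 and 4 lay below the input, wild-type replicate 1 lay above it, and the other 6 IP libraries overlapped with it.

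Of the 4 precursors, Pomc was the only one with IP libraries above the input. Pomc (chromosome 12, 3954951 to 3960642, plus strand) ranged from 1.19 to 6.02 CPM with a median of 2.47 in knockout IP and from 1.57 to 5.04 CPM with a median of 3.23 in wild-type IP, against 1.79 CPM in the input. Penk (chromosome 4, 4133531 to 4138819, minus strand) ranged from 1.60 to 5.13 CPM with a median of 2.59 in knockout IP and from 0.886 to 2.80 CPM with a median of 1.65 in wild-type IP. All 12 values lay under the 15.2 CPM of the input, and the upper 3 knockout libraries lay above every wild-type one. Penk exons overlap A830012C17Rik on the opposite strand. Pdyn (chromosome 2, 129686565 to 129699844, minus strand) ranged from 0.167 to 2.55 CPM with a median of 1.84 in knockout IP and from 0.0402 to 1.08 CPM with a median of 0.580 in wild-type IP. The input held 4.33 CPM, above all IP libraries, and knockout replicate 4, at 0.167 CPM, stood below 5 of the 6 wild-type libraries.

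Pnoc, the nociceptin precursor (chromosome 14, 65400673 to 65425472, minus strand), had the fewest counts of the precursors in the purified RNA. It had 0.142 to 1.90 CPM with a median of 0.937 in knockout IP and 0.0402 to 0.338 CPM with a median of 0.182 in wild-type IP. These values rest on 253 counts summed over the 6 knockout libraries and 53 over the 6 wild-type libraries, while the input alone held 531 counts, or 12.0 CPM (95% exact Clopper-Pearson interval 11.0 to 13.1 CPM, counting error only). In knockout the counts per library were 42, 4, 88, 30, 37 and 52 for replicates 1 to 6, and in wild type they were 6, 1, 17, 5, 16 and 8. Knockout replicate 2 lay within the wild-type range, and the other 5 knockout libraries lay above every wild-type library.

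**Figure D1:**
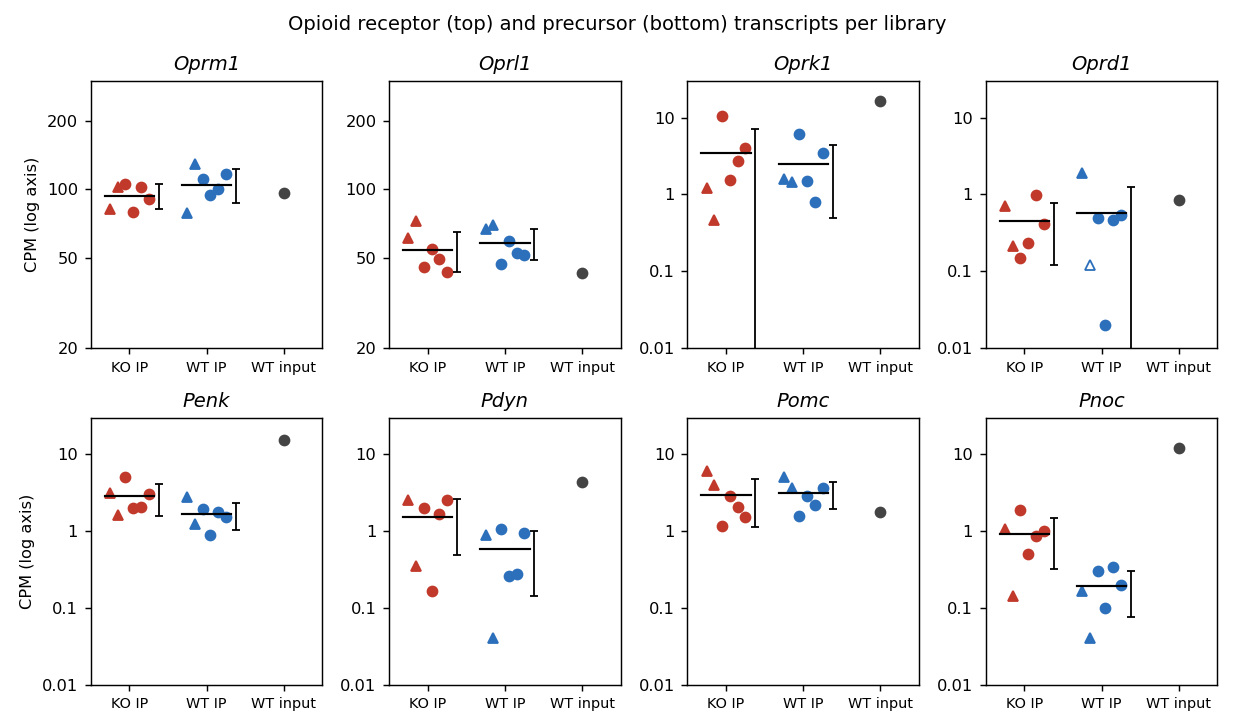
Level of each opioid transcript per library in CPM on log axes, with receptors in the top row and precursors in the bottom row. Triangles are earlier and circles later IP libraries, and the input, which belongs to neither, is also drawn as a circle. The open triangle is a count of 0 drawn at the level of 3 counts. The horizontal line is the mean and the whisker the SD of 6 libraries. Oprm1 and Oprl1 lie between 43.3 and 129 CPM in every IP library, and Oprk1, Penk, Pdyn and Pnoc lie below the input in every IP library.

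Levels of different genes were compared per kilobase of exon, as CPM per kb over the 12 IP libraries. Oprl1 averaged 14.9 CPM per kb and Oprm1 12.4 CPM per kb, and Oprl1 was the higher of the 2 in 9 of 12 libraries, with overlapping ranges of 11.5 to 19.3 and 9.74 to 16.1 CPM per kb. Pomc followed at 2.32 CPM per kb, and every Oprm1 value was above every Pomc value. Penk averaged 1.39 CPM per kb and overlapped with Pomc, which was higher in 9 of 12 libraries. Pdyn at 0.369, Oprk1 at 0.323, Pnoc at 0.256 and Oprd1 at 0.126 CPM per kb came last, and each of these overlapped with its neighbour in the order. A longer annotation lowers the level per kb, and Oprm1 has 31 annotated transcripts over 8037 exon bases against 11 over 3753 for Oprl1, and the effect of the choice of exons on their order was not tested.

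IP and input were compared by the log2 ratio of CPM + 1, with no test because there was 1 input library. A transcript was called enriched when it reached 2 times the input in each of the 6 wild-type IP libraries, and depleted when it was at the inverse or less in each. Under this rule, with no filter on low values, 0 of the 8 opioid genes were enriched and 4 were depleted in wild-type IP, against 2.52% and 7.20% of all 22682 symbols. The depleted genes were Oprk1, Penk, Pdyn and Pnoc. After adding 1 CPM, a symbol with less than 1 CPM in the input could not be called depleted. This held for Oprd1, at 0.839 CPM, and it lowers the depleted share of all symbols. With a filter that asked for 5 CPM either in the input or on average in wild-type IP, 4.71% of 11434 genes were enriched and 11.1% depleted. Oprk1, Penk and Pnoc passed that filter by their input level alone and so had to lie below the input, Oprm1 and Oprl1 passed it on both sides, and Oprd1, Pdyn and Pomc did not pass it. In knockout IP the same rule without the filter gave 0 enriched opioid genes and 2 depleted ones, Penk and Pnoc, against 1.84% and 4.50% of all symbols. The input held ribosome-bound and free RNA of every cell in the dissected piece, and in such samples fewer cells of a type and less RNA per cell cannot be told apart. The input was also counted on another gene list, of 37328 symbols, against 32531 or 24454 in an IP library. Ambiguous reads made up 3.98% of the input, against 0.581% to 1.36% of IP libraries. The effect of this on the ratios was not tested.

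The receptors fell on both sides of the input. Oprm1 had a median log2 ratio of -0.01 in knockout IP (-0.28 to 0.13) and 0.12 in wild-type IP (-0.30 to 0.42), with 3 knockout and 4 wild-type libraries above the input. Its wild-type ratio stood at percentile 60.5 of all genes that passed the filter, whereas the 8 purified neuron markers had a median of 3.20. Per 100 CPM of those markers, Oprm1 had 1.89 ± 0.775 CPM in knockout IP, 1.80 ± 0.456 CPM in wild-type IP (SD, n = 6 each) and 16.2 CPM in the input. Oprl1 had 0.26 in knockout IP (0.01 to 0.74) and 0.37 in wild-type IP (0.12 to 0.68), at percentile 73.3. The median over all genes was -0.07, and with library sizes scaled by TMM it was 0.16, where Oprl1 in wild-type IP had 0.61. Oprk1 had -2.51 in knockout IP (-3.58 to -0.59) and -2.79 in wild-type IP (-3.28 to -1.30). The knockout value closest to the input was that of replicate 3, the library with the highest markers of other cells. Per 100 CPM of 7 thalamic and lateral habenula markers, Oprk1 had 0.309 ± 0.151 CPM in knockout IP, 0.393 ± 0.136 CPM in wild-type IP and 0.518 CPM in the input. Oprd1 had -0.48 in knockout IP and -0.31 in wild-type IP, with values on both sides of 0 in either genotype.

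Pnoc had the lowest ratio of the 8 genes, a median of -2.75 in knockout IP (-3.51 to -2.17) and -3.46 in wild-type IP (-3.65 to -3.28). Penk had -2.19 in knockout IP (-2.64 to -1.40) and -2.61 in wild-type IP (-3.10 to -2.09). Pdyn had -0.91 in knockout IP (-2.19 to -0.59) and -1.78 in wild-type IP (-2.36 to -1.36). Adding 1 CPM sets a lowest possible ratio for each gene, which is nearer 0 the lower the input. The input held 4.33 CPM of Pdyn, 12.0 CPM of Pnoc and 15.2 CPM of Penk. The order of these 3 genes and the narrow wild-type range of Pnoc therefore depend on the added 1 CPM. For scale, 5 of the 8 GABAergic neuron markers passed the filter, with a median wild-type ratio of -2.74, and 4 of these were depleted, against 11.1% of all genes. Of the 5, Slc32a1, Sst and Pvalb passed it by their input level alone and so had to lie below the input. Pomc differed from them, with a median of 0.30 in knockout IP (-0.35 to 1.33) and 0.59 in wild-type IP (-0.12 to 1.11), above the input in 4 knockout and 5 wild-type libraries. Of these libraries, replicate 5 of either genotype overlapped with the input within counting error. The Pomc values rest on 55 to 239 counts per knockout library, 89 to 182 per wild-type library and 79 in the input.

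**Figure D2:**
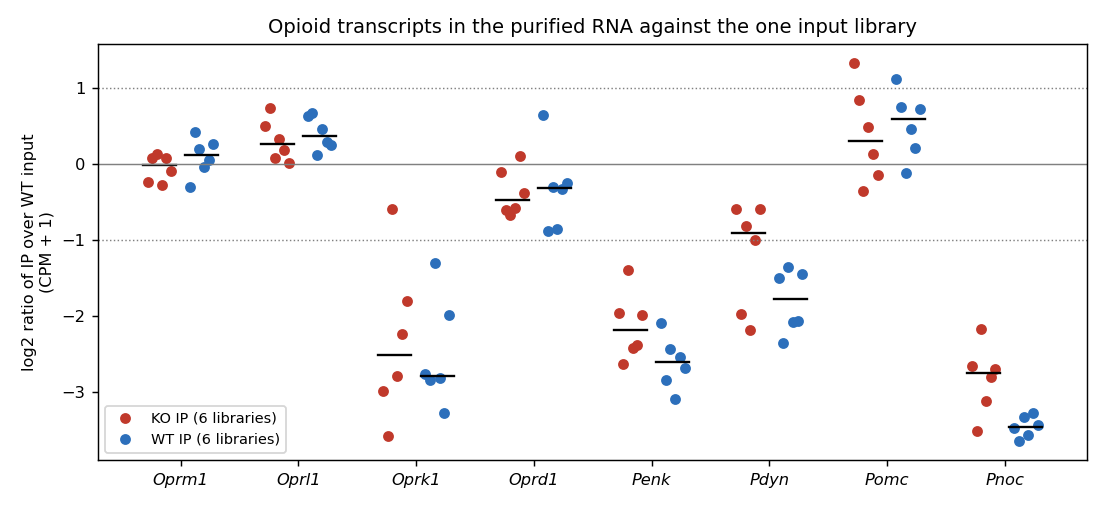
Log2 ratio of IP over the input library for the 8 opioid transcripts, after adding 1 CPM to each, with 6 knockout points left of 6 wild-type points and black lines at the medians. Dotted lines mark 2 times the input and its inverse. Oprm1 and Oprl1 lie around 0, Pomc mostly above it, and Oprk1, Penk, Pdyn and Pnoc below it.

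Oprl1 and Pomc were higher in the earlier than in the later libraries, in both genotypes. Oprl1 averaged 50.4 ± 5.22 CPM in the 8 later IP libraries and 67.5 ± 4.75 CPM in the 4 earlier ones (SD), and Pomc averaged 2.24 ± 0.831 CPM in the later and 4.69 ± 1.06 CPM in the earlier ones. For both genes every earlier library was above every later one, which held for 8.52% of the 14065 genes so compared. None of the 8 genes had every earlier library below every later one, which held for 5.58% of genes, and the other 6 opioid genes overlapped. Since the library sets were counted on different gene lists, handling and counting cannot be told apart, and the set was a term in the genotype model.

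Knockout and wild-type IP libraries were compared with edgeR's quasi-likelihood test over 14317 genes. It called 2 genes after Benjamini-Hochberg adjustment, 0.0140% of those tested, and 0 of the 8 opioid genes were among them. DESeq2 called 12 genes, 0.0838%, and Pnoc was 1 of them. As Pnoc was chosen with this contrast known, its place there is no further evidence. The receptors had fold changes near 0 where they were abundant. The log2 fold change of Oprm1 was -0.13 ± 0.11 (SE, 95% interval -0.38 to 0.12) and that of Oprl1 -0.08 ± 0.10 (-0.29 to 0.13). The low receptors gave wide intervals, with 0.23 ± 0.61 for Oprk1 (-1.11 to 1.56) and 0.20 ± 0.74 for Oprd1 (-1.42 to 1.81).

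The precursors spread more. Pnoc averaged 0.912 ± 0.594 CPM in knockout IP and 0.191 ± 0.114 CPM in wild-type IP (SD, n = 6 each), a log2 fold change of 2.26 ± 0.47 (SE, 95% interval 1.24 to 3.29). Pdyn averaged 1.55 ± 1.06 CPM in knockout IP and 0.580 ± 0.438 CPM in wild-type IP, with a log2 fold change of 1.53 ± 0.62 (0.19 to 2.87). Penk averaged 2.84 ± 1.28 CPM in knockout IP and 1.70 ± 0.661 CPM in wild-type IP, with a log2 fold change of 0.79 ± 0.33 (0.08 to 1.50). Pomc averaged 2.94 ± 1.82 CPM in knockout IP and 3.17 ± 1.23 CPM in wild-type IP, with a log2 fold change of -0.20 ± 0.27 (-0.79 to 0.39). In none of the 8 genes did all 6 knockout libraries clear the whole wild-type range, as they did for 0.0427% of 14065 genes. Among the 8 later libraries alone, the 4 knockout libraries did so for Pnoc and Penk, and for 0.619% of all genes. As the genes were chosen with this contrast known, nothing is read from that share.

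The fold changes of Pnoc, Penk and Pdyn were above 0 in both library ages, with few counts behind the earlier ones. The log2 fold change of Pnoc was 2.22 ± 0.56 in the later and 2.38 ± 0.97 in the earlier libraries (SE). That of Penk was 1.05 ± 0.39 in the later and 0.26 ± 0.56 in the earlier ones, a difference of 0.79 (95% interval -0.70 to 2.29), and that of Pdyn was 1.36 ± 0.75 in the later and 1.98 ± 1.22 in the earlier ones. Oprk1 had 0.72 ± 0.70 in the later and -0.97 ± 1.07 in the earlier libraries, with a difference of 1.69 (-1.13 to 4.50). Over all 14317 genes, the interaction of genotype with library age was called for 0 by edgeR, with 325 at an unadjusted p under 0.05.

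GABAergic neuron markers are set beside Pnoc, Penk and Pdyn here. The 8 markers summed to 52.4 to 328 CPM in knockout IP with a median of 141, to 16.6 to 156 CPM in wild-type IP with a median of 61.8, and to 645 CPM in the input. Among IP libraries Pomc was lowest, at 1.19 CPM, in knockout replicate 3, which had the highest marker sum. Pomc was highest, at 6.02 CPM, in knockout replicate 1. That library had the highest mean log2 level of the markers, 2.82, against 1.44 in knockout replicate 3. Whether Pomc follows these markers was not tested. The defining markers Gad1, Gad2 and Slc32a1 were present in all 13 libraries, while Vip was at 0 in knockout replicates 2 and 3 and wild-type replicates 2, 4 and 6, and Npy in wild-type replicate 2. Of the 6 markers tested between genotypes, 0 were called by edgeR, 5 had an unadjusted p under 0.05, all 6 had a fold change above 0 and the median was 1.09 on the log2 scale. Of all 14317 genes, 438 had an unadjusted p under 0.05 and 7216 a fold change above 0. Per 100 CPM of GABAergic markers, Pnoc had 0.571 ± 0.262 CPM in knockout IP, 0.351 ± 0.196 CPM in wild-type IP (SD, n = 6 each) and 1.87 CPM in the input. For Penk this quotient was 2.13 ± 0.923 in knockout IP, 3.77 ± 2.21 in wild-type IP and 2.35 in the input. For Pdyn it was 0.974 ± 0.758 in knockout IP, 0.874 ± 0.446 in wild-type IP and 0.671 in the input, and for Oprk1 1.75 ± 0.846 in knockout IP, 4.74 ± 2.91 in wild-type IP and 2.56 in the input. With the mean log2 level of the GABAergic markers as a term beside the library set, the log2 fold change was 1.26 for Pnoc (95% interval 0.12 to 2.40), 0.07 for Penk (-0.72 to 0.87) and -0.40 for Pdyn (-1.80 to 1.00). The same term moved Oprk1 to -1.11 (-2.62 to 0.41), Oprd1 to -0.90 (-2.90 to 1.11) and Oprm1 to -0.33 (-0.63 to -0.03), and turned the sign of Oprl1, at 0.09 (-0.16 to 0.33), and of Pomc, at 0.23 (-0.49 to 0.95). With the glial markers as a term, Pnoc had 1.75 (0.80 to 2.70), Pdyn 0.74 (-0.46 to 1.94), Penk 0.35 (-0.15 to 0.86), Oprk1 -0.60 (-1.48 to 0.28), Oprd1 -0.05 (-1.73 to 1.63) and Pomc 0.08 (-0.40 to 0.56). In the same fit Oprm1 had -0.22 (-0.45 to 0.01) and Oprl1 -0.02 (-0.22 to 0.19). Without knockout replicates 3 and 6 and wild-type replicate 3, a choice made after seeing the data, Pnoc had 1.93 (0.61 to 3.25), Pdyn 1.31 (-0.28 to 2.91), Penk 0.43 (-0.23 to 1.10) and Oprk1 -0.30 (-1.37 to 0.77). The part of RNA from these cells in the precursor differences was not tested.

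**Figure D3:**
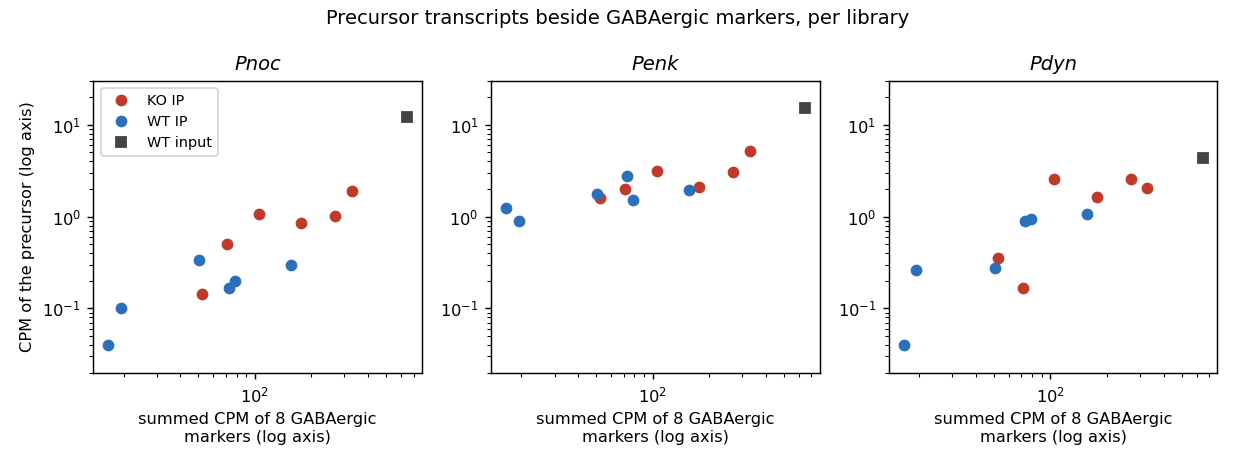
Level of Pnoc, Penk and Pdyn in each library against the summed level of 8 GABAergic neuron markers, both in CPM on log axes. Red circles are knockout IP, blue circles wild-type IP and the grey square the input. The input is highest in the markers and in all 3 precursors. Among IP libraries, knockout replicate 3, highest in the markers at 328 CPM, is highest in Pnoc and Penk, wild-type replicate 2, lowest at 16.6 CPM, is lowest in Pnoc and Pdyn, and 5 of the 6 knockout libraries lie above every wild-type library for Pnoc.

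**Figure D4:**
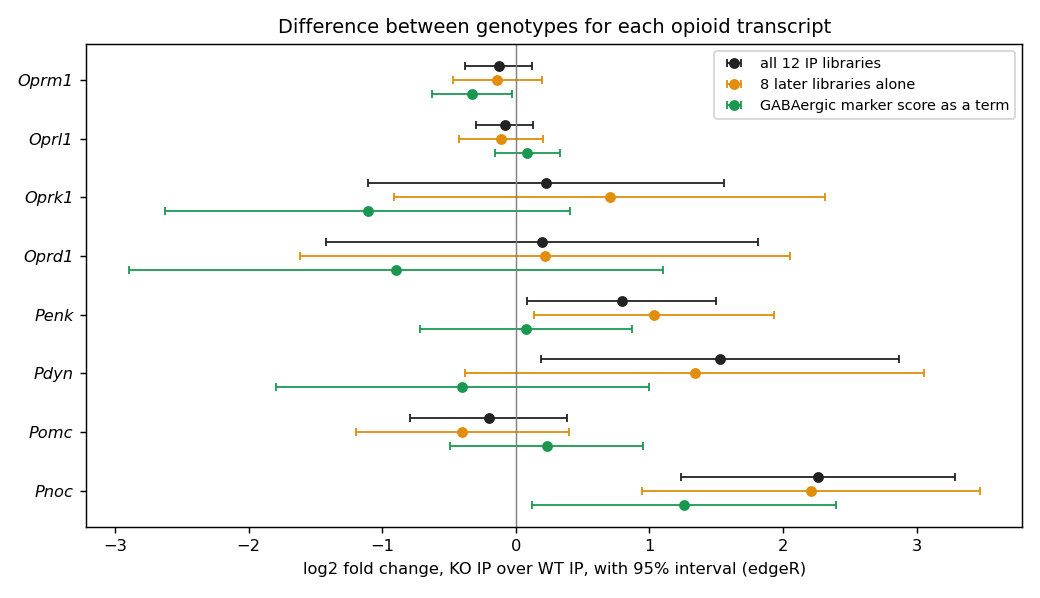
Log2 fold change of each opioid transcript, knockout IP over wild-type IP, with its 95% interval from edgeR in 3 fits. Pnoc, which was chosen for its knockout level, has 2.26 with all 12 libraries, 2.21 with the 8 later ones and 1.26 with the GABAergic term. With that term Penk has 0.07 and Pdyn -0.40.

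Markers of the other cells were also counted between genotypes. Fold changes were above 0 for 8 of 8 astrocyte markers (median log2 fold change 0.86), 8 of 8 oligodendrocyte markers (0.79), 7 of 7 thalamic and lateral habenula markers (0.58), 5 of 6 hippocampal and 3 of 5 striatal markers, and for 0 of 8 purified neuron markers (-0.16). The median over all genes was 0.002. The genes with the smallest p in these lists were Aldoc (0.78), Mobp (0.64), Gap43 (0.73), Wfs1 (0.24), Rgs9 (-0.31) and Chat (-0.38), with Sst (0.95) in the GABAergic list and Tac1 (-0.26) in the substance P list, on the log2 scale and with an edgeR adjusted p of 0.999 each. Of the hypothalamic peptide markers, oxytocin (Oxt) was called, at 0.825 ± 0.462 CPM in knockout IP and 0.0426 ± 0.0109 CPM in wild-type IP, with a log2 fold change of 4.03 ± 0.44 (SE, adjusted p = 0.00592) that rests on 1 to 3 counts per wild-type library. Along with Gpr151 it made up the 2 called genes.

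The machinery around the peptides and receptors showed no call between genotypes. Over 5 lists of 56 genes for precursor processing, peptide breakdown, Gi/o signalling, receptor desensitization and other opioid-associated proteins, 55 were tested, edgeR called 0 and DESeq2 called 0. The median log2 fold change was 0.04, and 1 gene had an unadjusted p under 0.05 against 438 of all 14317. That gene was Rgs14, a regulator of G protein signalling, at 0.544 ± 0.364 CPM in knockout IP and 0.179 ± 0.192 CPM in wild-type IP, with a log2 fold change of 1.75 ± 0.75 (SE, adjusted p = 0.999). The genes with the smallest p of the other lists were the protease Ctsl (0.17 ± 0.17), neurolysin Nln (0.46 ± 0.33), the P/Q calcium channel subunit Cacna1a (0.83 ± 0.45) and the atypical chemokine receptor Ackr3, which binds opioid peptides (0.83 ± 0.53), each with an adjusted p of 0.999.

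Among the genes of peptide handling, Pam and Mme were concentrated in the purified RNA. Of 8 processing genes that passed the filter, 1 was enriched and 0 were depleted, against 4.71% and 11.1% of all genes. The enriched one was Pam, the enzyme that amidates peptides, with a median log2 ratio of 1.69 in knockout IP and 1.68 in wild-type IP. It had 199 to 428 CPM in knockout IP and 250 to 396 CPM in wild-type IP, against 94.2 CPM in the input. The lowest of that list was Scg5, the chaperone of prohormone convertase 2, with a wild-type ratio of -0.94. Of 8 breakdown genes, Mme, the gene of neprilysin, which degrades enkephalins, was enriched and none was depleted, against the same shares of all genes. It had 120 to 303 CPM in knockout IP and 158 to 257 CPM in wild-type IP, against 41.2 CPM in the input, and its median ratio was 2.16 in knockout and 2.12 in wild type. Nln was the lowest there at -1.24.

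The lists of the receptor side are described next. Of 15 Gi/o proteins and effectors, 0 were enriched and 4 were depleted in wild-type IP, against 4.71% and 11.1% of all genes, and the median ratio was -1.20, against -0.07. The highest was Gnao1, the abundant neuronal Go subunit, at 0.74, and the lowest was Adcy5, an adenylyl cyclase inhibited by Gi, at -2.89. The other depleted genes, named after their values were seen, were Gnai1 (-2.76), Adcy1 (-2.59) and Kcnj5 (-1.36). Of the GIRK channel subunits, also named after the values were seen, Kcnj6 had 0.05, Kcnj9 -1.20 and Kcnj3 -1.99. Among 15 desensitization genes that passed the filter, 1 was enriched and 2 were depleted, against the same shares of all genes. Gnb5, the G protein subunit that partners regulators of the R7 family, had 2.20, with 88.6 to 191 CPM in knockout IP and 101 to 183 CPM in wild-type IP against 29.6 CPM in the input. Rgs7bp, the membrane anchor of that same complex, was the lowest at -2.79, with 84.2 to 278 CPM in knockout IP and 84.3 to 205 CPM in wild-type IP against 705 CPM in the input. In the last list, where 6 genes passed, 1 was enriched and 1 depleted, again against 4.71% and 11.1% of all genes. All 5 lists, those of processing, breakdown and Gi/o signalling included, are small, so nothing is read from their counts of enriched and depleted genes. Gpr139, an orphan receptor known to oppose mu receptor signalling, was enriched at 1.89, and Ogfrl1, a relative of the opioid growth factor receptor, was depleted at -2.18. Gpr139 had 19.4 to 48.8 CPM in knockout IP and 31.3 to 49.4 CPM in wild-type IP, against 8.64 CPM in the input.

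**Figure D5:**
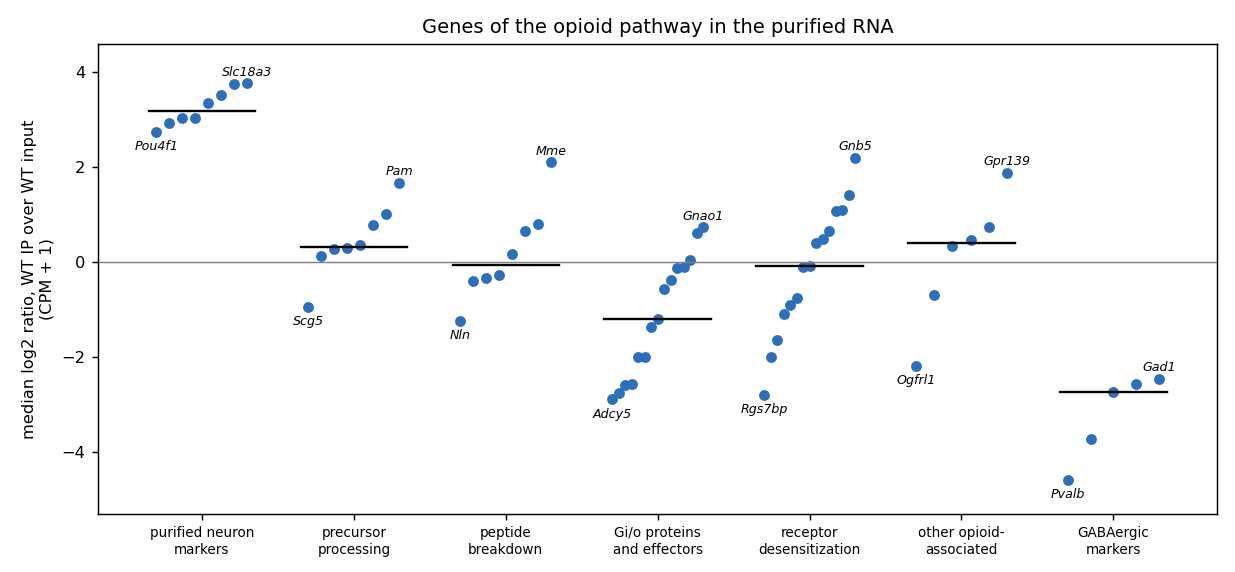
Median log2 ratio of wild-type IP over input, after adding 1 CPM, for each gene that passed the filter in 5 opioid pathway lists, with purified neuron and GABAergic markers for scale. Each point is a gene, black lines are list medians, and the highest and lowest gene of each list are named. Pam, Mme, Gnb5 and Gpr139 lie between 1.68 and 2.20, and the Gi/o list has a median of -1.20.

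The genes whose levels ran most like those of Oprm1 and of Pnoc were found by Pearson r of log2 CPM over the 12 IP libraries, after the mean of each library set was removed. Among 12540 genes, those most like Oprm1 were Sap130 (0.95), Hnrnpa2b1 (0.93), Arhgap26 (0.91), Dyx1c1 (0.91) and Hnrnpr (0.90). Among 12541 genes, those most like Pnoc were Afg3l2 (0.95), Skap2 (0.93), Hdac8 (0.91), Rnf182 (0.91) and Pcdhgb5 (0.90). Within the 8 later libraries alone, 1 of the 5 for Oprm1, Sap130, and 0 of the 5 for Pnoc were again among the 5 most alike. These values are maxima over many genes in libraries that share depth and cell makeup, and are given as a description. The genotype difference was not removed. Pnoc was chosen for its knockout level, so genes with a like difference can rank high for that alone.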

How the data were processed

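For every library the authors deposited a table of raw read counts by gene symbol. The submitters' processing notes name STAR 2.3.0e, HTSeq, DESeq2 and the build mm10; the sources used here state neither annotation nor strand setting. Groups follow the labels. Replicate numbers follow accession order. All 30 pairs of libraries within a group differed beyond sampling noise (22.3 to 797 units of chi-square per degree of freedom). Most file names mention saline and the input's also saccharin, but no label states a treatment, so a treatment difference between input and IP cannot be judged.

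Summary lines were left out, and CPM used the counts of the 22682 symbols shared by all libraries. Genotypes were compared on the 23857 symbols shared by the 12 IP libraries with edgeR 4.0.16 in R 4.3.3 (filterByExpr, TMM, robust quasi-likelihood test, library set as a term, two-sided, Benjamini-Hochberg threshold 0.05). The code was run on simulated counts with the same dispersion for every gene, no library set effect and changes only in genes above 1 CPM. That run does not show how the test does on these libraries or on lower genes such as Pnoc. DESeq2 1.42.0 was an alternative. The library set has 3 levels by library number: replicate 1, replicate 2 and replicates 3 to 6 of each genotype. Ratios to input used a pseudocount of 1 CPM and a filter of 5 CPM. Exon lengths and coding sequences came from GENCODE M21 (GRCm38), with lengths for 22142 of 22682 symbols; the coding sequence of Pdyn is not reported here. Adrbk1 and Adrbk2 are the files' symbols for Grk2 and Grk3.

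The 8 genes and all gene lists were chosen with earlier results of these data known. Genes named outside the 8 are, per list, those called, the smallest p and the highest and lowest ratio to input, plus the 5 most like Oprm1 and Pnoc. Named beyond this rule, after their values were seen, were Gnai1, Adcy1, Kcnj5, Kcnj6, Kcnj9 and Kcnj3. The GABAergic markers Gad2, Slc32a1, Vip and Npy were also named beyond it.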

Additional observations from a re-analysis of the deposited data

Results flagged for a closer look

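Of 16 groups of 6 IP libraries checked (8 genes in 2 genotypes), 2 had a sample far from the others by Dixon's criterion at the 95% level. Chance flags about 1 in 20 groups at that level if values are normally distributed and independent. That was not checked for these CPM values, and the 8 genes share libraries, so the chance rate here is not known. Oprk1 in knockout replicate 3 stood at 10.6 CPM, with the next knockout library at 4.03 CPM. Among IP libraries, knockout replicate 3 also had the highest summed level of GABAergic markers, at 328 CPM. The same held for astrocyte markers (1768 CPM), oligodendrocyte markers (1401 CPM) and thalamic and lateral habenula markers (1899 CPM). Oprd1 in wild-type replicate 1 stood at 1.88 CPM from 68 counts, with the next wild-type library at 0.547 CPM.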

How the results depend on the processing

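The genotype comparison called 2 genes in all. DESeq2 called 12, a filter of 1 CPM in 6 libraries left 1, the 8 later libraries alone 0 and the GABAergic term 1. Leaving out each IP library in turn gave 0 to 2 calls, with 0 without knockout replicate 1. The 5 pathway lists had 0 calls in all 21 alternatives. With knockout in place of wild-type IP libraries, 810 genes were depleted, against 1274. Of the 165 alternative fold changes of the 8 genes, 159 moved by less than the SD between replicates on the log2 scale. The other 6 were those of Oprk1, Oprd1, Pnoc, Penk and Pdyn with the GABAergic term and of Pnoc with the glial term, given above. Leaving out 1 library at a time gave Pnoc 1.92 to 2.44, Pdyn 1.33 to 1.83, Penk 0.50 to 0.91, Oprm1 -0.19 to -0.07, Oprk1 -0.40 to 0.60 and Oprd1 -0.29 to 0.56, so the last 2 changed sign. Over the remaining fits, the main one included, Oprm1 ranged from -0.33 with the GABAergic term to -0.12. Oprl1 (0.09) and Pomc (0.23) changed sign with the GABAergic term, and Pdyn (-0.40), Oprk1 (-1.11) and Oprd1 (-0.90) as well, while Pomc (0.08), Oprk1 (-0.60) and Oprd1 (-0.05) did so with the glial term and Oprk1 (-0.30) without 3 libraries. Of 104 alternative ratios to input, 94 moved by less than the SD between wild-type libraries. A pseudocount of 0.5 CPM gave Pnoc -4.20 and a pseudocount of 2 CPM -2.69, so its size depends on that choice. Low counts limit Oprd1, Pdyn and Pnoc. Every ratio to input is limited by having 1 input library, counted on another gene list than the IP libraries. No paired analysis was possible because replicate numbers follow accession order; the library sets, 2 of which hold 1 pool of each genotype, were already a term in the model.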
